A study of Mus musculus with 6 samples.

Results

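The type IV collagen genes were followed through single-cell RNA-seq of developing mouse lung. The members are the 6 listed genes Col4a1, Col4a2, Col4a3, Col4a4, Col4a5 and Col4a6, of 31053 genes in each count table, and all 6 are in all 6 tables. They were read in endothelial cells (ECs) split by the UMI counts of Eln, Gja4, Gpihbp1 and Car4, and in mesenchymal, epithelial and immune cells of whole lungs.

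Lungs of mice with a DsRed reporter knocked into the gene of the chemokine Cxcl12 were dissociated, and single cells were measured as 3′ tags carrying unique molecular identifiers (UMIs). There were 4 libraries of cells sorted for the reporter, from embryonic days E13.5, E15.5 and E18.5 and postnatal day P8, all labelled Cxcl12DsRed/+, with CD45 and EpCAM used to remove immune and epithelial cells before CD31-positive and CD31-negative reporter cells were taken. The other 2 libraries were whole E18.5 lungs, one labelled homozygous null (Cxcl12DsRed/DsRed) and one labelled heterozygous control (Cxcl12DsRed/+), so every library, controls included, carried at least 1 reporter allele. Each condition was 1 library, so differences between ages or genotypes have no replicate check. Differences between classes of cells are read within each library and set side by side, but libraries of different ages or preparations are not replicates of a condition, so no test is given, and all intervals are 95% and cover counting error only. Lungs were pooled, 2 to 4 for each sorted library and 2 of each genotype for the whole lungs, and their sexes are not given in the sources used here.

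The tables held 8845 to 13098 barcodes and 63746333 to 117522172 UMIs each, and 8268 to 12726 cells were kept. ECs (Pecam1+Cdh5 of at least 2 UMIs, with no Epcam or Ptprc UMI) numbered 210, 9353, 9098 and 8241 in the sorted libraries in order of age, with 1851 and 2844 in the whole lungs labelled control and null. All 7 endothelial markers were higher in ECs than in the other cells of every library, and in the whole lungs all 7 mesenchymal, 6 epithelial and 6 immune markers were higher in the cells called so. In the sorted E13.5 library only 5 of 7 mesenchymal and 5 of 6 epithelial markers were. The Eln gate held 6 of 6 proximal arterial markers from E15.5 on and the Gja4 gate 7 of 7 arterial markers, whereas the Gpihbp1 gate held only 2 of 5 general capillary markers at E15.5 (not Plvap, Sema3c or Hpgd) and 5 of 5 in the sorted E18.5 and P8 libraries, with 3 of 5 (not Sema3c or Hpgd) and 4 of 5 (not Hpgd) in the lungs labelled control and null. Gates overlap, since 29.1%, 35.2% and 66.8% of sorted ECs passed 2 or more of the 4 at E15.5, E18.5 and P8. Some ECs also held at least 10 UMIs of Col1a2+Col3a1, the mesenchymal gate, namely 3.81%, 0.824% and 0.279% at those ages and 7.89% and 8.97% in the whole lungs. The libraries shared 20 to 54 barcodes pairwise, except the whole lungs, which shared 140, or 1.58% of the smaller.

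Type IV collagen is the network-forming collagen of basement membranes, the sheets of matrix on which endothelial and epithelial cells rest and which surround pericytes and smooth muscle. Each molecule is a triple helix of alpha chains, and the chains combine in fixed sets: alpha1 with alpha2 in nearly all basement membranes, alpha3 with alpha4 and alpha5 in special sites such as the kidney filter and the alveolar wall, and alpha5 with alpha6 in parts of the airway and around smooth muscle. The genes lie in head-to-head pairs that share the stretch between their start sites.

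In GENCODE M21 on GRCm38, Col4a1 (ENSMUSG00000031502) spans chromosome 8 from 11198423 to 11312826 on the minus strand and Col4a2 (ENSMUSG00000031503) 11312805 to 11449287 on the plus strand, so the genes overlap by 22 bases at their starts. Col4a4 (ENSMUSG00000067158) lies on chromosome 1 at 82448423 to 82586849, minus strand, and Col4a3 (ENSMUSG00000079465) at 82586921 to 82722059, plus strand. On chromosome X, Col4a6 (ENSMUSG00000031273) spans 141165403 to 141474076 on the minus strand and Col4a5 (ENSMUSG00000031274) 141475385 to 141689234 on the plus strand, and their RefSeq starts are 1343 bases apart. RefSeq promoter windows of 300 bases (250 before the start, 50 after; GRCm38.p6) were matched for 5 of the 6, all but Col4a3. The windows of Col4a1 (chr8:11312777-11313076, minus strand) and Col4a2 (chr8:11312555-11312854, plus strand) are printed because these are the abundant members in ECs, and capitals mark the 78 bases that both windows hold on opposite strands.
Col4a1: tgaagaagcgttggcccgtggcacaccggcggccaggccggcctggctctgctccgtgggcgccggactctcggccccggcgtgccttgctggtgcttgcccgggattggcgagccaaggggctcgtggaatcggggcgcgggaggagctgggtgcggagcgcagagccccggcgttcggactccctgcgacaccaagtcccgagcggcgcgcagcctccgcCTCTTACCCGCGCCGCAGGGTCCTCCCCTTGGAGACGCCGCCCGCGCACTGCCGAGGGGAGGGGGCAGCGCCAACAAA
Col4a2: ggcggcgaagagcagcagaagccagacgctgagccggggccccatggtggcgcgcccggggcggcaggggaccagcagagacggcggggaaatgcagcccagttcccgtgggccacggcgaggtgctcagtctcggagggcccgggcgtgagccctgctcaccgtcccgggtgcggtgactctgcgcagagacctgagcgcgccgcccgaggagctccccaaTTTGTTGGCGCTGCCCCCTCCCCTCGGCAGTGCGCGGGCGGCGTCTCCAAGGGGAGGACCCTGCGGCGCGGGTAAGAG
Both windows were rich in G and C, 74.0% and 73.7% against a median of 52.7% over 32851 promoters, and held 37 and 33 CG dinucleotides against a median of 7. The windows of Col4a4, Col4a5 and Col4a6 had 63.3%, 52.7% and 48.3% G and C with 14, 11 and 3 CG. The letters CCAAT were found once each in the windows of Col4a1, Col4a2 and Col4a5, on either strand, and in 37.4% of all promoters. GGGCGG was found once in Col4a1, 3 times in Col4a2 and once each in Col4a5 and Col4a6 (35.7% of all promoters), and TATAAA in none of the 5 (13.6% of all).

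Col4a1 and Col4a2, the chains of the common network, were the abundant members in ECs. Levels are UMIs of the gene per 1000000 UMIs summed over the cells of a class (CPM). A UMI counts a 3′ end whatever the length of the gene, but capture of 3′ ends was not compared between genes. Levels are therefore compared mainly between classes. Col4a1 in sorted ECs was at 736, 802, 886 and 1077 CPM from E13.5 through to P8, and at 1590 and 1361 in the whole lungs labelled control and null. Col4a2 was at 504, 546, 550 and 658 CPM in the sorted libraries and at 859 and 737 in the whole lungs. Both genes were highest at P8 among the sorted libraries, and the whole-lung ECs, taken without the reporter sort, lay above all sorted libraries. The 210 ECs of E13.5 were lowest on summed UMIs but not with each cell at equal depth, and 12.4% of them passed the mesenchymal gate and 18.1% were called doublets. With each cell thinned to 2000 UMIs, a Col4a1 UMI was found in 67.8%, 67.6%, 65.5% and 75.3% of sorted ECs in order of age (88.6%, 87.0%, 80.6% and 88.9% unthinned) and in 85.0% and 80.8% of whole-lung ECs (95.4% and 93.6%). The same share in immune cells of the whole lungs, which should not make the gene, was 15.3% and 17.9% (29.0% and 35.6% unthinned, at median depths of 15137 and 15398 UMIs against 7732 and 8652 in ECs). Of the Col4a1 UMIs in immune cells 89.3% and 92.6% were in cells that also pass the mesenchymal gate, without which 12.98% and 19.4% of immune cells held one unthinned.

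The other 4 members were low in ECs. Col4a5, the best counted of them, was at 4.44, 4.39, 4.14 and 1.45 CPM in the sorted libraries (8, 413, 247 and 89 UMIs) and at 7.64 and 4.81 in the whole lungs. Col4a3 had no UMI in the 210 ECs of E13.5, which allows up to 1.66 CPM, and 6, 37 and 55 UMIs (0.0637, 0.621 and 0.896 CPM) at E15.5, E18.5 and P8. Col4a4 had none at E13.5 and 0.329, 0.520 and 0.538 CPM later, and Col4a6 none, then 0.266, 0.0839 and 0.0163 CPM, the last 1 UMI. Whole-lung ECs held 1.31 and 0.564 CPM of Col4a3, 1.08 and 1.29 of Col4a4, and 0.358 and 0.431 of Col4a6. An EC level above that of immune cells, beyond counting error, was not detectable in both whole lungs for any of these 3 genes. For Col4a3 the log2 ratio of immune cells over ECs was -1.15 (-2.08 to -0.008) in the lung labelled control. In that labelled null it was 0.06 (-0.88 to 1.04). The immune class includes cells that pass the mesenchymal gate, so it is not a floor, and absence from ECs was not tested.

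The level of Col4a1 and Col4a2 per EC varied over a wide range within each library. Among 2000 UMIs the mean number of Col4a1 and Col4a2 UMIs together was 2.88, 2.72, 2.93 and 3.34 per sorted EC in order of age and 5.05 and 4.30 in the whole lungs. The variance was 2.25 to 3.56 times the mean, where 1 is the value for pure counting at a single level, and was largest in the sorted E18.5 cells (3.18) and the lung labelled control (3.56). Between 10.3% and 25.6% of ECs held neither gene. Both UMIs were found together in 45.6% to 65.9% of thinned ECs, and a Col4a2 UMI was found in 69.0% to 77.5% of ECs with a Col4a1 UMI against 25.8% to 38.8% of those without.

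Low levels went with Eln, the elastin gene, which marks the endothelium of the large proximal arteries. The 6 proximal arterial markers summed to 7673, 7107 and 7996 CPM in Eln ECs at E15.5, E18.5 and P8 against 319, 483 and 292 in the others, 4 venous markers were also higher (491, 699 and 1071 against 97.1, 235 and 207), and the 7 general arterial markers differed little (1999, 2923 and 3293 against 1773, 3063 and 2760). In ECs with at least 10 Eln UMIs, Col4a1 was at 295, 184 and 236 CPM at E15.5, E18.5 and P8, against 894, 987 and 1132 in the other ECs. Col4a2 was at 181, 104 and 133 CPM against 612, 614 and 693. Together they were 0.317, 0.181 and 0.202 times the level of the other ECs, log2 ratios of -1.66 (-1.70 to -1.62), -2.47 (-2.54 to -2.40) and -2.30 (-2.39 to -2.22), over 1505, 801 and 396 Eln ECs. Both genes were lower in the Eln ECs at each age. A gene is called here when it reached 50 CPM in 1 of the 2 classes compared, in each library, and differed by at least 2-fold the same way in each. Of 2898 genes that could be called 1.66% were lower and 3.59% higher, and the 2 members among them, Col4a1 and Col4a2, were both lower. On the mean of the 3 log2 ratios, 6 of the 2898 genes lay below Col4a2 (-2.23) and 9 below Col4a1 (-2.09), and the median of all genes was -0.04. At E13.5 only 47 ECs passed the gate, with 413 and 296 CPM of Col4a1 and Col4a2 against 844 and 574.

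In the sorted libraries from E15.5 on the difference was graded. With each cell at 2000 UMIs, Col4a1 plus Col4a2 at E15.5 was 1634 CPM in ECs with no Eln UMI, 1149 with 1, 476 with 2 to 4, 444 with 5 to 9 and 185 with 10 or more. At E18.5 the same bins held 1724, 1181, 388, 173 and 156 CPM, and at P8 1863, 1526, 832, 227 and 93.2. The lung labelled control was not graded throughout, at 2724, 2296, 1451, 1907 and 1089 CPM, nor were the few ECs of E13.5, at 1755, 1847 and 1011 in the first 3 bins. The share of Eln ECs with a Col4a1 UMI among 2000 was 23.0%, 13.3% and 17.3% at the 3 ages, beside 15.3% and 17.9% in the immune cells of the whole lungs. Most Col4a1 UMIs of those immune cells were in cells that also pass the mesenchymal gate. Their share, from other libraries, is thus not a floor for Eln ECs.

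Whole lungs had the same direction with a smaller size. Col4a1 plus Col4a2 was 1883 CPM in the 175 Eln ECs of the lung labelled control against 2546 in the others (-0.43; -0.49 to -0.38), and 1485 against 2252 in the 370 of the lung labelled null (-0.60; -0.64 to -0.56). The 6 proximal arterial markers summed to 4522 and 4737 CPM in these Eln ECs against 310 and 269 in the others. The 7 general arterial markers were lower in them, at 802 and 1688 CPM against 974 and 1763. Many of these Eln ECs also carried mesenchymal transcripts: 65.1% and 62.4% passed the mesenchymal gate, and the summed level of 7 mesenchymal markers was 4692 and 3513 CPM in them against 166 and 169 in the other ECs. In the sorted Eln ECs the sums were 862, 469 and 394 CPM against 116, 47.3 and 20.0. With the cells that pass the mesenchymal gate left out, Col4a1 plus Col4a2 in the Eln ECs was 762 and 413 CPM against 2554 and 2256 (61 and 139 cells; -1.74 and -2.45), and in the sorted libraries 300, 185 and 314 against 1516, 1602 and 1825 (-2.34, -3.11 and -2.54). Leaving out the 5% of cells with the highest doublet scores in each library moved the mean of the sorted libraries from -2.14 to -3.46. The part that cells or RNA of mesenchymal origin had in the Eln ECs was not tested further.

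High levels went with Gpihbp1, the capillary anchor of lipoprotein lipase, which marks general capillary cells (gCaps). ECs with at least 2 Gpihbp1 UMIs held 977, 1206 and 1200 CPM of Col4a1 at E15.5, E18.5 and P8, against 709, 542 and 546 in the rest. Col4a2 was at 640, 749 and 731 CPM against 496, 335 and 346. The summed log2 ratios were 0.42 (0.40 to 0.45), 1.16 (1.13 to 1.19) and 1.11 (1.08 to 1.15), with 1.09 and 1.15 in the lungs labelled control and null. The ratio was smallest at E15.5, where the gate held 2 of 5 capillary markers. It was 1.09 in the lung labelled control, where the gate held 3 of 5. A link between these markers and the ratio was not tested. Of 2755 genes tested 0.399% were called higher and 1.38% lower, and neither member was called, with 31 genes above the mean of Col4a1 (0.92) and 36 above that of Col4a2 (0.87). By bins at E18.5 the level was 1045 CPM with no Gpihbp1 UMI, 1889 with 1, 2117 with 2 to 4 and 2541 with 5 to 9. At P8 it was 1151, 1787, 1920 and 2047 CPM in these bins and 1500 (1219 to 1826) in the 33 ECs with 10 or more. The gap was smaller between ECs passing Gpihbp1 alone and ECs passing none of the 4 gates, at 0.21, 0.09 and 0.25, and 0.44 and 0.25 in the whole lungs. This changes both sides of the ratio. At E15.5 the Gpihbp1 side was lower (1418 against 1618 CPM) and the other side little changed (1229 against 1205). At E18.5 and P8 the other side was higher (2000 and 1755 against 877 and 892).

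Car4, a carbonic anhydrase, marks aerocytes (aCaps), the capillary cells of the gas exchange surface, and only 10 ECs passed it at E15.5. At E18.5 Col4a1 and Col4a2 were at 1549 and 989 CPM in 851 Car4 ECs against 798 and 491 in the others (summed log2 0.98; 0.95 to 1.01). At P8 they were at 1376 and 829 CPM in 1774 Car4 ECs against 925 and 572 (0.56; 0.53 to 0.58). The lungs labelled control and null gave 0.61 and 0.60 over 51 and 191 Car4 ECs. Of the ECs inside or outside each of the 4 gates, Car4 ECs thus had the highest level at E18.5 and P8, at 2538 and 2205 CPM for the sum, followed by ECs outside the Gja4 gate at 2183 and 2100. Of 3232 genes 1.76% were called higher and 1.45% lower, neither member among them (0.76 and 0.77, with 140 and 139 genes above). Against ECs passing none of the gates, ECs passing Car4 alone had ratios of 0.62 (265 cells) and 0.36 (222 cells). A Col4a1 UMI was found in 91.3% and 91.8% of Car4 ECs thinned to 2000 UMIs and in 82.8%, 83.9% and 84.4% of Gpihbp1 ECs at E15.5, E18.5 and P8.

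Gja4, the connexin of arterial endothelium, had a ratio that differed with age. In ECs with at least 2 Gja4 UMIs Col4a1 was at 810 CPM at E15.5 against 781 in the rest, but at 676 against 1337 at E18.5 and at 1031 against 1300 at P8. Col4a2 was at 564, 412 and 629 CPM against 496, 846 and 800. The summed log2 ratios were 0.10 (0.08 to 0.13), -1.005 (-1.03 to -0.98) and -0.34 (-0.37 to -0.31), and -0.60 and -0.58 in the whole lungs labelled control and null. The gate took 75.8%, 65.3% and 77.1% of the sorted ECs and 30.04% and 49.7% of the ECs of the lungs labelled control and null. Of 2712 genes 0.516% were called higher and 0% lower, so no member was called (-0.42 for Col4a1 and -0.40 for Col4a2, with 122 and 134 genes below). ECs passing Gja4 alone were higher than ECs passing no gate at E15.5 (1463 against 1229 CPM, 0.25) and lower at E18.5 (706 against 2000) and P8 (754 against 1755, -1.22), and -1.21 and -1.25 in the whole lungs. These ECs are not a set of arterial ECs outside the proximal arteries. The level fell with Eln in steps, to 388 CPM at 2 to 4 Eln UMIs among 2000 at E18.5. The Eln gate thus need not remove all proximal arterial ECs. Passing Gja4 alone also leaves out all Gpihbp1 and Car4 ECs, and at E15.5 the Gpihbp1 gate held only 2 of 5 capillary markers. Whether arterial ECs outside the proximal arteries were low, and at which ages, was therefore not tested.

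Cxcl12 itself ordered the ECs in the same sense at the later ages. Among 2000 UMIs, Col4a1 plus Col4a2 at E18.5 was 2027, 1270, 932, 685 and 606 CPM in ECs with 0, 1, 2 to 4, 5 to 9 and 10 or more Cxcl12 UMIs. At P8 the bins held 1997, 1895, 1593, 1082 and 778 CPM, and in the lung labelled null 2524, 1727, 1234, 959 and 872. At E15.5 the bins held 1384, 1509, 1294, 1239 and 1171 CPM, a much smaller span. The sorted cells were chosen for the Cxcl12 reporter, so the sorted levels are those of a selected part of the lung's endothelium.

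ECs were split by 4 further gates, each of 2 UMIs. ECs with Apln, the apelin gene, held more Col4a1 plus Col4a2, by log2 ratios of 0.25, 0.88 and 0.47 at E15.5, E18.5 and P8 and 0.54 and 0.55 in the whole lungs. The Apln gate overlaps in kind with Car4: Apln is itself one of the 6 aerocyte markers, and their summed level was 2160 and 2136 CPM in Apln ECs at E18.5 and P8 beside 2208 and 1689 in Car4 ECs. ECs with Esm1, a tip cell gene, had 0.53, 0.29 and -0.06, and 0.24 and 0.22 in the whole lungs. For Cxcr4, the receptor of Cxcl12, the values were 0.44, 0.00 and -0.23, and 0.07 and -0.17. Cxcr4 ECs held 4010 CPM of the 7 arterial markers at E18.5 and 3841 at P8, against 3046 and 2793 in all ECs. Cycling ECs (Mki67+Top2a) were at -0.21 at E13.5 and -0.13 at E15.5, then 0.32 and 0.19 at E18.5 and P8. The Apln gate had the same sign in all 5 libraries in which it was read, and the Esm1 gate in 4 of them.

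Between ages the total in ECs differed by less than it did with the Eln gate. The sum of Col4a1 and Col4a2 was 1241, 1349, 1436 and 1734 CPM in order of age. The log2 ratio of E15.5 over P8 was -0.42 (-0.45 to -0.40) for Col4a1 and -0.27 (-0.29 to -0.24) for Col4a2, while 16.8% of 3734 genes were called lower and 6.56% higher at E15.5, and 1383 and 1680 genes lay further below. Within classes the order of ages was not the same. Eln ECs went from 477 CPM at E15.5 to 289 and 369, Gpihbp1 ECs from 1618 to 1954 and 1931, and Gja4 ECs from 1373 to 1088 and 1660. The mix of classes also moved: Gpihbp1 ECs were 27.7%, 46.1% and 73.6% of sorted ECs and Eln ECs 16.1%, 8.80% and 4.81%. With the mix of Eln and Gpihbp1 gates held at that of E15.5, the sum was 1349, 1258 and 1270 CPM at the 3 ages. Col4a1 was then 802, 777 and 784 CPM and Col4a2 546, 481 and 486. This holds the shares of the gates and not the kinds of cells within them. ECs outside the Gpihbp1 gate held 2296, 4246 and 4325 CPM of the 7 arterial markers at E15.5, E18.5 and P8. The part of the mix of cell kinds in the higher level at P8 was therefore not tested. Fewer cells of a class and less RNA per cell cannot be told apart in the summed values.

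**Figure D1:**
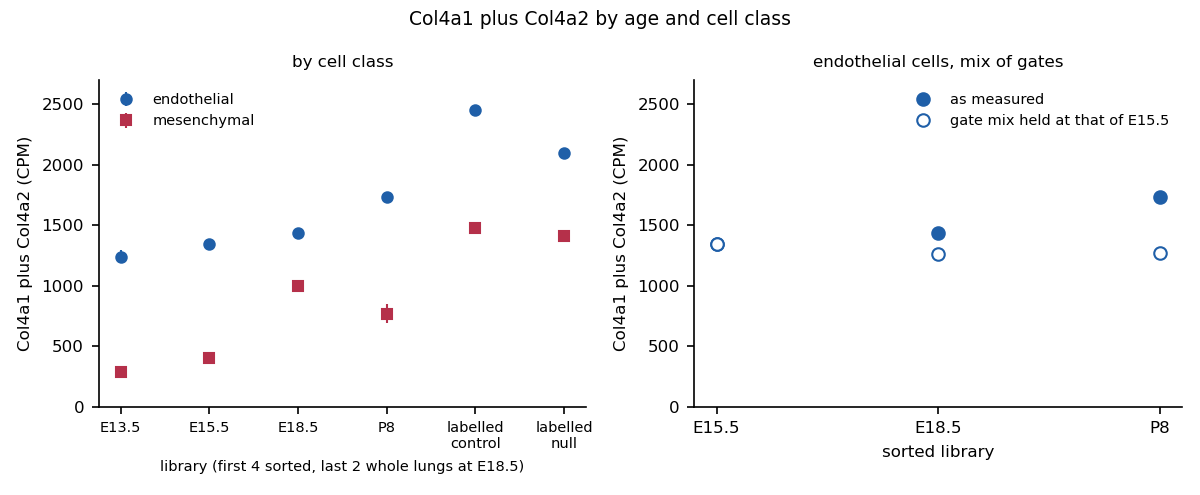
Col4a1 plus Col4a2 (CPM, vertical axis) by library in ECs and mesenchymal cells, and in sorted ECs as measured against the E15.5 mix of gates. Measured ECs go from 1349 CPM at E15.5 to 1734 at P8. With the shares of the gates, though not the kinds of cells within them, held at those of E15.5 they stay between 1258 and 1349.

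Col4a5 had an EC pattern unlike that of Col4a1 and Col4a2, while Col4a3, Col4a4 and Col4a6 had at most 55 UMIs in the ECs of any library. Col4a5, the X-linked chain of the alveolar and airway networks, was higher in Eln ECs, at 11.3, 11.6 and 11.3 CPM at E15.5, E18.5 and P8 against 3.13, 3.07 and 0.80 in the other ECs. The log2 ratios were 1.70 (1.33 to 2.08), 1.77 and 3.19 (2.47 to 3.86; 43 and 46 UMIs), and in the lungs labelled control and null 24.4 against 4.76 CPM and 13.4 against 2.66. This direction is opposite to that of Col4a1 and Col4a2. It was not particular to Col4a5, though the other counts were low. At E15.5, E18.5 and P8 the log2 ratios of Eln ECs over the others were 1.01 (0.26 to 1.74), 0.74 and 0.61 for Col4a6. They were 1.05 (0.30 to 1.77), -0.20 and 2.08 (1.01 to 3.05) for Col4a4 and 0.22, -0.35 and 0.41 for Col4a3. The values given without an interval had one that included 0. Without the ECs that pass the mesenchymal gate, where Col4a5 is also found, the values were 8.76 against 3.04, 10.7 against 3.02 and 10.8 against 0.78 CPM, and 26.0 against 3.12 (17 UMIs) and 10.1 against 2.28 (18 UMIs) in the whole lungs. Gpihbp1 ECs held less Col4a5, at 2.53, 2.84 and 0.90 CPM against 5.38, 5.55 and 3.79. The lower Col4a5 of P8 ECs than of E15.5 ECs (log2 ratio of E15.5 over P8 1.33; 0.97 to 1.68) was found in ECs without Eln (1.48) and not in Eln ECs (0.00; -0.63 to 0.66). Col4a5 is X-linked, and the libraries differed in sex-linked genes. The Y-linked genes Ddx3y, Eif2s3y, Kdm5d and Uty summed to 36.7, 145 and 0.0956 CPM at E15.5, E18.5 and P8. Xist, expressed in female cells, was at 899, 242 and 946 CPM. Col4a5 in all ECs was at 4.39, 4.14 and 1.45 CPM at these ages. With 1 library per age, the part of sex in the age difference was not tested.

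In the mesenchymal cells (Col1a2+Col3a1 of at least 10 UMIs, outside the other gates) Col4a1 was at 180, 250, 676 and 508 CPM in the sorted libraries in order of age, over 8533, 1979, 253 and 57 cells. Col4a2 was at 110, 153, 323 and 257 CPM. In whole lungs they were at 1046 and 434 CPM in the library labelled control and 985 and 421 in that labelled null. ECs over mesenchymal cells gave summed log2 ratios of 2.10, 1.74, 0.52 and 1.18 in the sorted libraries, and of 0.73 (0.70 to 0.75) and 0.58 (0.55 to 0.60) in the whole lungs. The endothelial excess was thus largest in the 2 earliest libraries, where mesenchymal levels were lowest. For the whole lungs 15.7% of 3687 genes were called higher in ECs and 13.2% lower. Neither member was called, with 1010 genes above Col4a1 (0.53) and 678 above Col4a2 (0.89).

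Type IV collagen outside the endothelium differed between mesenchymal kinds. The kinds were read over all cells outside the EC, epithelial and immune gates, so they also hold cells below the mesenchymal gate. At E13.5 the sum was 565 CPM in cells with the pericyte genes Cox4i2+Higd1b against 246 in the rest (1.20), and 625 CPM in cells with the smooth muscle genes Myh11+Cnn1 against 255 (1.29). Cells with Tcf21, a fibroblast factor, were lower than the rest at E13.5 (-0.73) and E15.5 (-0.52), and in both whole lungs (-0.65 and -0.77). In the sorted E18.5 library neither fibroblasts (-0.04; -0.20 to 0.12; 116 cells) nor smooth muscle cells (-0.04; -0.21 to 0.12; 66 cells) differed from the rest beyond counting error. In whole lungs Col4a1 was at 1296 and 1323 CPM in smooth muscle cells, 1224 and 1101 in pericytes and 833 and 778 in fibroblasts, the library labelled control first in each pair. For Col4a1 the smooth muscle cells and pericytes thus came nearer than fibroblasts to the EC level, 1590 and 1361 CPM. For Col4a2 their gap to ECs was wider in both lungs. The smooth muscle cells were not split into those of vessels and those of airways.

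**Figure D2:**
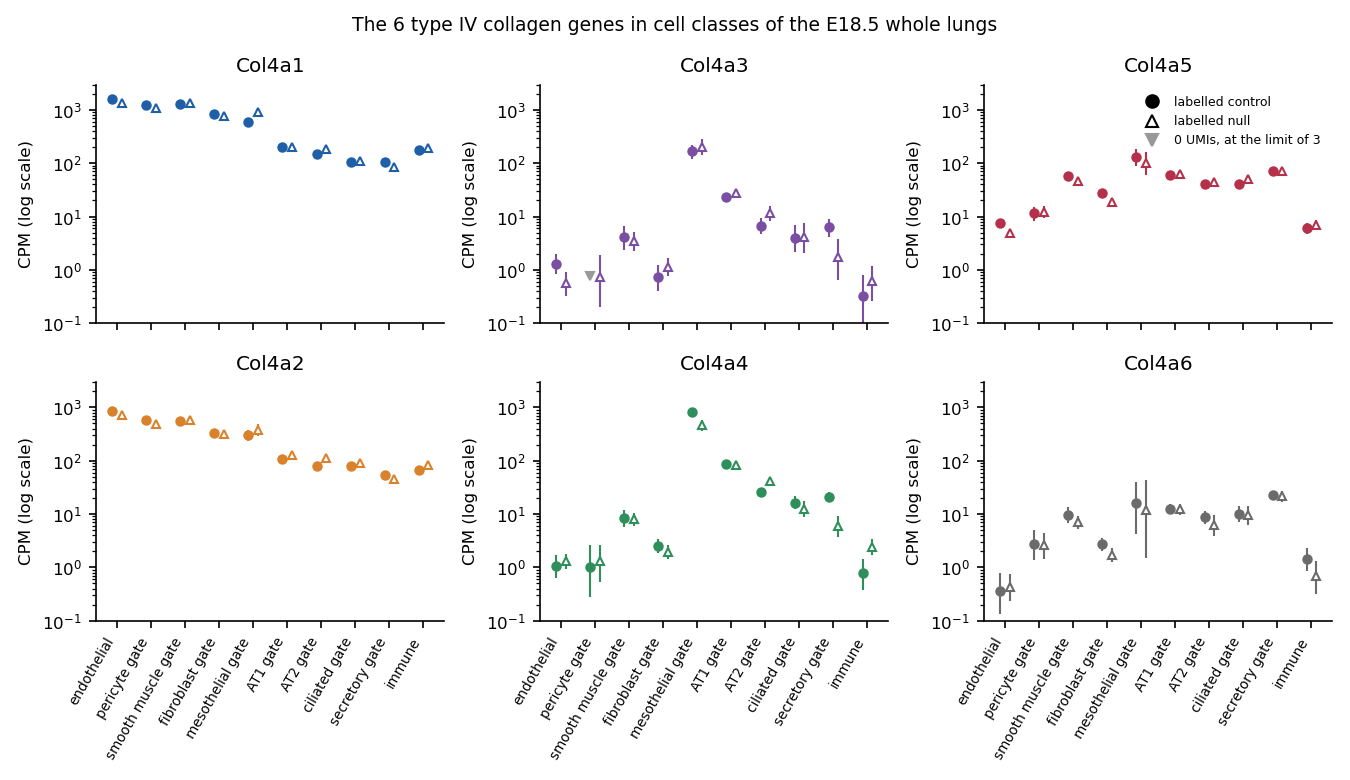
Levels of the 6 members (CPM, log axis) in 10 classes of cells of the whole E18.5 lungs, circles for the library labelled control and triangles for that labelled null, with bars for 95% counting intervals and gray symbols at the limit of 3 UMIs where none was counted. Col4a1 and Col4a2 are highest in ECs, Col4a5 and Col4a6 are high in secretory cells, and the gate of mesothelial genes holds 24 and 15 cells only.

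Ordered by level in the whole lungs, Col4a1 stood highest in ECs, then in smooth muscle cells, pericytes, fibroblasts, AT1 cells, immune cells and AT2 cells, with ciliated and secretory cells lowest, in both libraries. ECs and smooth muscle cells did not differ beyond counting error in the lung labelled null (1348 to 1374 and 1296 to 1349 CPM), nor did AT1, immune and AT2 cells there. For Col4a2 the order of pericytes (577 and 489 CPM) and smooth muscle cells (550 and 574) was not the same in the 2 lungs. Of all Col4a1 UMIs in the whole lungs 37.3% and 45.3% came from ECs, which held 20.0% and 29.7% of all UMIs, and 43.8% and 42.3% from mesenchymal cells. For Col4a2 ECs gave 42.7% and 50.2%.

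Epithelial and immune cells held far lower levels. Col4a1 was at 198 and 200 CPM in AT1 cells (Ager+Rtkn2), the thin cells of the gas exchange surface, 146 and 184 in surfactant-making AT2 cells, 108 and 112 in ciliated cells and 105 and 85.4 in airway secretory cells. Immune cells held 174 and 197 CPM. Without cells that pass the mesenchymal gate the immune level was 24.6 and 19.7 CPM, below all 4 epithelial classes, since AT1, AT2, ciliated and secretory cells were at 152 and 151, 111 and 133, 65.9 and 78.5, and 73.5 and 50.8 CPM. In the deposited SoupX-adjusted tables, in which estimated free RNA is subtracted, AT1 cells were at 34.3 and 101 CPM, AT2 cells at 0 and 59.0 and secretory cells at 0 in both. An epithelial level of Col4a1 therefore depended on the correction in all of these classes, with a value left in both lungs in AT1 cells.

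Col4a3 and Col4a4, chains of the alveolar network, had their highest levels among the larger classes in AT1 cells. Col4a4 was at 87.9 and 83.6 CPM in AT1 cells in the lungs labelled control and null, 26.4 and 42.1 in AT2 cells, 16.3 and 12.6 in ciliated cells, 20.9 and 6.04 in secretory cells and 1.08 and 1.29 in ECs. Col4a3 was at 23.3 and 27.2 CPM in AT1 cells, 6.78 and 11.5 in AT2 cells and 1.31 and 0.56 in ECs. The epithelial gates overlap, so a cell can count in several of these classes. Epithelial cells outside the AT1 gate held only 20 and 25 Col4a4 UMIs (4.18 and 6.68 CPM) and 9 and 4 Col4a3 UMIs. AT2, ciliated and secretory cells held 148 and 147, 53 and 33, and 97 and 21 Col4a4 UMIs. Most of those of AT2 cells in both lungs were thus in cells that also pass the AT1 gate. So were most of those of ciliated and secretory cells in the lung labelled control. AT1 cells stood above ECs by log2 ratios of 5.81 and 5.55 for Col4a4 and 3.71 and 4.70 for Col4a3, the reverse of the order of Col4a1 and Col4a2. A Col4a4 UMI was found in 20.7% and 14.4% of AT1 cells thinned to 2000 UMIs (52.7% and 46.7% unthinned) against 0.131% and 0.130% of immune cells, and the SoupX-adjusted AT1 levels were 187 and 105 CPM. Epithelial cells held 55.1% and 50.6% of all Col4a4 UMIs with 15.5% and 9.29% of all UMIs, and cells passing more than 1 gate held 21.4% and 24.7%. The few epithelial cells in the sorted libraries also held the pair, with 145 and 339 CPM of Col4a3 and Col4a4 in 32 cells at E18.5.

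A second place with Col4a3 and Col4a4 was a small set of cells with the mesothelial genes Msln+Upk3b, named here after its values were seen and below the 50 cells set as the least for a class. Its 24 and 15 cells held 814 and 460 CPM of Col4a4 and 166 and 206 of Col4a3. They held 15.3% and 7.67% of all Col4a4 UMIs in the whole lungs with 0.30% and 0.16% of all UMIs. Mesothelial cells line the outer surface of the lung on a basement membrane, and all 5 mesothelial markers were higher in these cells than in the others outside the EC, epithelial and immune gates. Smooth muscle cells held 8.47 and 8.03 CPM of Col4a4, above pericytes at 1.02 and 1.30 and fibroblasts at 2.55 and 1.97.

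Col4a5 and Col4a6, chains of the airway and smooth muscle network, were highest in secretory cells (Scgb3a2 of at least 5 UMIs) among the classes of 50 cells or more. Col4a5 was at 72.6 and 70.4 CPM there, 60.1 and 61.8 in AT1 cells, 58.5 and 47.2 in smooth muscle cells, 41.3 and 51.1 in ciliated cells, 41.2 and 44.4 in AT2 cells and 27.2 and 18.5 in fibroblasts. Pericytes (11.4 and 12.2) and ECs (7.64 and 4.81) lay lowest beside immune cells (6.06 and 7.04, or 0.95 and 0.73 without those passing the mesenchymal gate). Col4a6 was at 22.8 and 21.6 CPM in secretory cells, 12.6 and 12.5 in AT1 cells, 9.75 and 7.06 in smooth muscle cells, 2.71 and 1.73 in fibroblasts and 0.358 and 0.431 in ECs. Ciliated and AT2 cells held 10.2 and 9.53 and 8.74 and 6.30 CPM of Col4a6. In the whole lungs both genes were thus high in epithelial and smooth muscle cells and low in pericytes and ECs, and the intervals of AT1, smooth muscle, ciliated and AT2 cells overlapped with at least 1 neighbour in each lung. In the younger sorted libraries smooth muscle cells did not stand out for Col4a6, at 1.63 CPM (14 UMIs) against 2.79 in the rest at E13.5 and 1.27 (3 UMIs) against 5.19 at E15.5. In mesenchymal cells of the sorted libraries Col4a5 was at 18.5, 26.1, 25.4 and 35.6 CPM, and ECs over mesenchymal cells gave -1.94 to -4.21 over the 6 libraries. A Col4a5 UMI was found in 15.2% and 12.5% of thinned secretory cells (72.1% and 70.6% unthinned) against 1.18% and 1.04% of immune cells. Of all Col4a6 UMIs 43.9% and 33.9% came from epithelial and 37.9% and 47.1% from mesenchymal cells.

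The number of Col4a1 UMIs per Col4a2 UMI was compared between classes, where a fixed difference in capture between the 2 genes cancels. It was 1.46, 1.47, 1.61 and 1.64 in sorted ECs in order of age and 1.85 in both whole lungs. Mesenchymal cells had 1.64, 1.63, 2.09, 1.98, 2.41 and 2.34, above the ECs of the same library in all 6. Eln ECs had 1.63, 1.77 and 1.77 at E15.5, E18.5 and P8 against 1.46, 1.61 and 1.63 in the other sorted ECs. Of these Eln ECs 16.8%, 8.11% and 4.55% passed the mesenchymal gate, and no ratio without them is given. Pericytes, smooth muscle cells and fibroblasts had 2.12, 2.36 and 2.47 in the lung labelled control. Ciliated cells had 1.37 and 1.26. In AT1 cells Col4a4 gave 3.77 (3.21 to 4.45) and 3.07 (2.56 to 3.71) UMIs per Col4a3 UMI. Col4a5 gave 10.0 and 10.7 UMIs per Col4a6 UMI in fibroblasts, 6.69 in smooth muscle cells of the lung labelled null and 3.18 and 3.27 in secretory cells. Of these classes Col4a6 thus took the largest part of the pair in airway secretory cells.

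**Figure D3:**
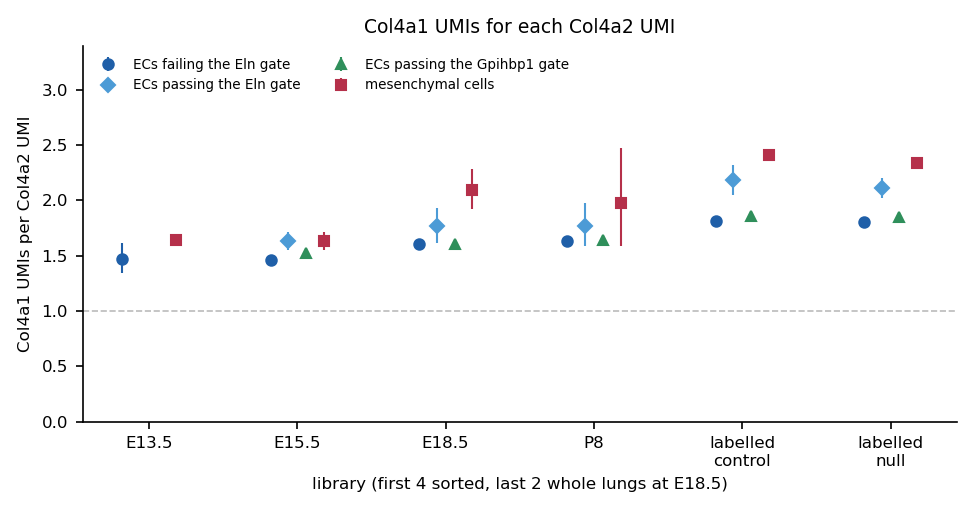
Col4a1 UMIs per Col4a2 UMI (vertical axis) by library in Eln ECs, ECs without Eln, Gpihbp1 ECs and mesenchymal cells, with bars for 95% counting intervals and a dashed line at 1. Mesenchymal cells lie above Gpihbp1 ECs and ECs without Eln in each library, up to 2.41.

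For the comparison of the whole lungs Cxcl12, the targeted gene, comes first, and it went against the labels. ECs held 853, 723, 1217 and 1119 CPM of Cxcl12 in the sorted libraries, 5.14 (4.11 to 6.34; 86 UMIs) in the library labelled control and 544 (536 to 552) in the library labelled null. Mesenchymal cells held 0.27 CPM in the library labelled control and 43.4 in that labelled null. The reporter sits in exon 1 of Cxcl12 and is not among the features, and 3′ tags read the other end of the transcript. The same tags gave 544 to 1217 CPM in the ECs of every sorted library, all labelled Cxcl12DsRed/+, and of the library labelled null, and 5.14 in the library labelled control. The 2 lungs also differed in Xist, at 0.107 CPM in the lung labelled control and 758 in that labelled null, and in the same 4 Y-linked genes, at 193 and 96.6 CPM. The SoupX adjustment removed 40.0% of UMIs from the former and 18.5% from the latter.

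ECs of the library labelled null held less Col4a1 plus Col4a2 than ECs of the library labelled control, at 2098 against 2448 CPM (-0.22; -0.25 to -0.20). Col4a1 and Col4a2 were each at -0.22, where 0.239% of 3349 genes were called higher and 0.179% lower and 267 and 278 genes lay below. The difference was smaller in mesenchymal cells (-0.07; -0.10 to -0.05) and had the other sign in epithelial (0.10; 0.00 to 0.20) and immune cells (0.21; 0.11 to 0.30). Within ECs it was -0.34 in Eln ECs (-0.88; -1.11 to -0.65 without those that pass the mesenchymal gate, 139 and 61 cells), -0.18 in the others, -0.17 in Gpihbp1 ECs and -0.26 in Car4 ECs. Split by Gja4 it was smaller, 1690 against 1812 CPM inside the gate (-0.10; -0.15 to -0.05) and 2525 against 2739 outside (-0.12; -0.15 to -0.09). The arterial mix moved with it: 6 arterial markers other than Cxcl12 summed to 1204 CPM in ECs of the library labelled null and 944 in those of the library labelled control, with 49.7% and 30.04% of ECs passing Gja4. On SoupX-adjusted counts the EC value was -0.51 and the immune value 2.09, so the size of the difference moved with the free RNA correction. Col4a5 was lower in the library labelled null in ECs (-0.62; -1.07 to -0.16), mesenchymal cells (-0.53; -0.70 to -0.37) and fibroblasts (-0.55), and near equal in epithelial cells (0.07). Col4a5 is X-linked, and the labelled genotype and the sex of the animals cannot be told apart between these libraries. Col4a4 was near equal in AT1 cells (-0.07), or at -0.83 on SoupX-adjusted counts. On the counts as deposited it was higher in AT2 cells (0.66; 0.20 to 1.13) and lower in secretory cells (-1.71; -2.62 to -0.84). These classes overlap with the AT1 gate, outside which epithelial cells held only 20 Col4a4 UMIs (labelled control) and 25 (labelled null). AT2 cells held 148 and 147 and secretory cells 97 and 21. Both values thus also depend on cells that pass the AT1 gate, and none without these cells is given. In mesenchymal cells Col4a4 was at -1.23 (-1.62 to -0.85). But 179 of its 258 UMIs in the library labelled control and 53 of 132 in that labelled null came from 14 and 8 cells with mesothelial genes. Without these the value was -0.32 (-0.86 to 0.22). The direction for genotype is that of the labels, while the names of the deposited files give the genotypes of these libraries the other way round, and the direction would be the opposite if the labels were exchanged. ECs were 2844 of 9157 cells in the library labelled null and 1851 of 8268 in that labelled control. The paper reports a lower percentage of ECs in null lungs, the other way round from these labelled counts.

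The other basement membrane genes were read from a list of 21 (laminins, nidogens, perlecan and others). For the Eln gate 7 were tested and none called, beside 3.59% and 1.66% of all genes, with a median of 0.28. Tinagl1, a matrix protein of vessels (192, 184 and 258 CPM in Eln ECs against 90.3, 126 and 45.5; mean log2 1.37), and Hspg2, which encodes perlecan (328, 270 and 104 against 207, 108 and 29.3; 1.27), were higher in Eln ECs. Nid1, the nidogen linking laminin and type IV collagen networks, was at 0.04 and the laminin chain gene Lamc1 at -0.35. For Gja4, Gpihbp1 and Car4, 5, 6 and 5 of the list were tested, with medians of 0.01, -0.29 and 0.18 beside medians of all genes of 0.02, 0.01 and 0.00, and 1 call, Tinagl1, which was lower in Car4 ECs (44.7 and 27.3 CPM against 145 and 74.5). Across ages 5 of 10 tested were called higher at E15.5 than at P8 (Fbln1, Col18a1, Lamb1, Hspg2 and Lama4), beside 6.56% of all genes tested, with a list median of 1.32 against -0.18 for all genes. Col18a1, the gene of another basement membrane collagen, stood at 418 against 21.9 CPM and Lamb1 at 86.0 against 11.1. This was the opposite direction to Col4a1 and Col4a2 as measured. With the shares of gates held at those of E15.5, though not the kinds of cells within them, Col4a1 and Col4a2 were also lower at P8. Between ECs and mesenchymal cells of whole lungs 5 of 13 were called higher (Tinagl1, Hspg2, Agrn, Nid2 and Col18a1) and 4 lower (Lamb1, Lama4, Fbln1 and Npnt), beside 15.7% and 13.2% of all genes. None of 11 was called between the labelled lungs (median -0.18), where Col15a1 (-0.80) and Nid2 (-0.60) were lowest and Tinagl1 highest (0.32).

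A list of 32 genes that make, bind or turn over type IV collagen was read the same way. In Eln ECs 3 of 16 tested were called, beside 3.59% of all genes, all of them higher: Mmp2, a type IV collagenase (150, 82.2 and 81.6 CPM against 12.2, 4.20 and 5.09; mean log2 3.86), P3h3, a prolyl hydroxylase family member (94.7, 71.4 and 66.6 against 21.8, 17.4 and 14.6; 2.08) and Crtap, of a prolyl hydroxylase complex, with a list median of 0.47. Itga2, the alpha2 chain of a collagen receptor, had a mean of -1.17 over the 3 ages, at 26.8, 20.6 and 38.2 CPM in Eln ECs against 60.6, 64.2 and 63.3, and did not reach 2-fold at P8. Both Mmp2 and P3h3 were also lower in ECs than in mesenchymal cells of the whole lungs, with Mmp2 at 51.2 and 40.4 CPM against 471 and 359 and P3h3 at a log2 ratio of -1.85. Without the ECs that pass the mesenchymal gate Mmp2 was at 173, 80.3 and 73.1 CPM in Eln ECs against 11.1, 3.62 and 4.84, P3h3 at 91.1, 67.9 and 65.8 against 20.8, 17.0 and 14.5, and Crtap at log2 ratios of 1.16, 1.33 and 1.29. For the Gja4, Gpihbp1 and Car4 gates none of 12, 12 and 14 tested genes was called (medians 0.13, -0.23 and 0.05). Timp3, an inhibitor of matrix proteases, had -0.44, 0.37 and 0.89 and Serpinh1, the collagen chaperone, -0.33, 0.27 and 0.62. Across ages 15 were tested, and the shares called were near those of all genes (6.56% and 16.8%). Timp1 was called higher at E15.5 (56.5 against 11.8 CPM) and Timp2, Timp3 (78.2 against 421) and Itga1 (33.6 against 193), a type IV collagen receptor chain, lower, with a median of -0.15. Between ECs and mesenchymal cells 1 of 23 was called higher (Itga2, 72.5 and 64.9 against 4.29 and 2.72 CPM) and 8 lower, among them Ddr2 (-3.04) and Mmp2 (-3.16), beside 15.7% and 13.2% of all genes. None of 16 was called between the labelled lungs, and Pxdn, the enzyme that cross-links type IV collagen, was at -0.43.

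As a description, likeness of pattern was taken as Pearson's r of log2(CPM + 1) over 133 classes of the 6 libraries, which share libraries and overlapping cells, among 7265 genes. Col4a1 was most like Col4a2 (0.98), then Gng11 (0.90), Cdc42ep1, Gnb4 and Dgkh (0.88 each). After Col4a1, Col4a2 was most like Cdc42ep1, Ets1 and Dach1 (0.90 each) and Dgkh (0.89). Col4a3 was most like Col4a4 (0.86), Ager (0.85), Akap5, Cldn18 and Mbip (0.83 each), and Col4a4 like Sftpa1 (0.91), Sh2d4a, Fxyd3, Cxcl15 and Aqp5 (0.90 each). For Col4a5 the genes were Nupr1 (0.91), Dync2li1, Nav2 (0.90 each), Ddr1 and Atp1b1 (0.89 each), and for Col4a6 Osbpl6 (0.92), F3 (0.91), Ptpn13 (0.90), Tst and Col4a5 (0.89 each). Each head-to-head pair was thus close within itself, while Col4a1 with Col4a5 (-0.61) and Col4a2 with Col4a6 (-0.74) ran in opposite directions over the classes.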

How the data were processed

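Cell suspensions of 6 mouse lung libraries were run on 10x Genomics 3′ v3 chemistry, and the authors aligned and counted them with Cell Ranger (3.1 per the labels, 3.0.2 or 3.1.0 per the file headers) on mm10. The authors deposited raw UMI counts per gene and called cell, and for the whole lungs also expected counts from SoupX, in which estimated free RNA is subtracted. Seurat 3.2.2 is named in the submitters' notes. No other table of the series was used.

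Cells with at least 700 genes and 0.5% to 10% mitochondrial UMIs were kept. Median depth of kept cells was 5647 to 9030 UMIs. ECs had Pecam1+Cdh5 of at least 2 UMIs, epithelial cells Epcam of at least 1 and immune cells Ptprc of at least 1, each without the other gates. Cells passing several of these were set apart as mixed. Mesenchymal cells passed none and held Col1a2+Col3a1 of at least 10. ECs, epithelial and immune cells may still pass that last gate. ECs were split at 10 UMIs of Eln and 2 of Gja4, Gpihbp1 or Car4. Further gates were Ager+Rtkn2 of at least 3 (AT1), Lamp3+Slc34a2 of 2 (AT2), Foxj1 of 1 (ciliated), Scgb3a2 of 5 (secretory), Cox4i2+Higd1b of 2, Myh11+Cnn1 of 5, Tcf21 of 2, Msln+Upk3b of 2 and Mki67+Top2a of 2. Gates within ECs, epithelial cells or the remaining cells may overlap, so a cell can count in several classes. Classes under 50 cells were left out of means and calls.

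UMIs were summed over the cells of a class and given as CPM with exact Poisson 95% intervals. Log2 ratios were taken of CPM + 0.5, and their intervals join opposite ends of the 2 Poisson intervals. With 1 library per condition no test was run and no p-value is given. Means are over E15.5, E18.5 and P8 for the Eln, Gja4 and Gpihbp1 gates, over E18.5 and P8 for Car4 and over the whole lungs for ECs against mesenchymal cells. Shares of cells were read with each cell thinned to 2000 UMIs, shallower cells left out, and where a class had no UMI the level that 3 UMIs would give is the limit. The 2-fold rule was run on Poisson counts simulated from 1 library, with changes set beyond 2-fold. Those counts hold no spread between cells, animals or libraries, so they check the calculation and not the calls. Scrublet in scanpy 1.11.5 called 730, 416, 427 and 507 doublets at E13.5, E15.5 and in the lungs labelled control and null, and none at E18.5 and P8, where it is taken not to have worked. Doublets were kept in the values given and left out in the alternatives.

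The text names the 6 members, the genes of the gates, Cxcl12, the 3 highest and 3 lowest genes of each of 2 lists (21 basement membrane genes and 32 genes for making, binding and turnover of type IV collagen) per comparison among genes of at least 50 CPM, and the 5 genes most like each member. Members, gates and lists were chosen with earlier results of these data known. The last 400 bases of each member's transcripts hold no stretch of 60 bases found in another gene, but Gm15418 overlaps the 3′ end of Col4a1 and C430014B12Rik that of Col4a3. Promoter windows were read from RefSeq (GRCm38.p6). Python 3.11.15, numpy 2.4.6, scipy 1.17.1, pandas 2.3.3 and matplotlib 3.10.9 were used.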

Additional observations from a re-analysis of the deposited data

Results flagged for a closer look

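The difference between ECs inside and outside a gate changed sign between ages for 4 gates, and in none of them was the difference between ages tested, since each age is 1 library. For Gja4, Col4a1 plus Col4a2 had log2 ratios of 0.10, -1.005 and -0.34 at E15.5, E18.5 and P8. For the cycling gate it was -0.21 at E13.5 and -0.13 at E15.5 but 0.32 at E18.5 and 0.19 at P8. For Esm1 the ratios were 0.53, 0.29 and -0.059. For Cxcr4 it was 0.44 at E15.5 and -0.23 at P8. The counting intervals of these values did not include 0, but they take no account of differences between animals.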

How the results depend on the processing

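Of 70 alternatives to the 7 comparisons of Col4a1 plus Col4a2, 42 stayed within the counting interval and 1 changed direction: E15.5 over P8 was 0.086 with the mix of Eln and Gpihbp1 gates held at that of E15.5. No paired analysis was possible because each group is 1 library and the labels carry no replicate numbers, and the gates are compared within each library. For Eln the mean log2 ratio of -2.14 became -3.73 with cells thinned before the gates, -2.51 without Scrublet calls, -3.46 without the 5% of cells with the highest Scrublet scores (chosen after seeing the data), -2.81 as a mean over single cells, -2.66 without cells passing the mesenchymal gate and -1.68 for ECs passing this gate alone, at E15.5 only. For Gja4, -0.41 became -0.54 with thinning, -0.54 over single cells and -0.82 alone. For Gpihbp1, 0.90 became 0.60 with thinning, 0.93 without the top 5%, 0.78 over single cells and 0.18 alone. For Car4, 0.77 became 0.81 without the top 5% and 0.49 alone, and Scrublet calls were not run, as neither of its libraries had any. For E15.5 over P8, -0.36 became -0.23, -0.34, -0.34, -0.32 and -0.34 with thinning, without Scrublet calls, without the top 5%, over single cells and without cells passing the mesenchymal gate. For ECs over mesenchymal cells, 0.65 became 0.58 with thinning, 0.61 over single cells, 0.52 with mixed cells kept and 0.82 on SoupX-adjusted counts. For the lung labelled null over that labelled control, -0.22 became -0.25, -0.13 and -0.51 over single cells, with mixed cells and with SoupX. Thinning makes the Eln gate stricter, and passing a gate alone leaves out cells by construction. For the others the cause was not tested. Leaving out cells passing the mesenchymal gate for Mmp2, P3h3 and Crtap and for Eln ECs of the labelled lungs, or cells with mesothelial genes for Col4a4, was chosen after seeing the data, as were the values at the E15.5 mix of gates and those by library without cells passing the mesenchymal gate. Depth limits Col4a3, Col4a4 and Col4a6 in ECs, where fewer than 56 UMIs were counted in any library.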
